A study of Drosophila melanogaster with 2 samples.

Results

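miR-315 is a microRNA of Drosophila melanogaster, read here as the single row named mir-315 in the count tables of a larval and an adult central nervous system (CNS) library and in the authors' comparison of them, 1 of 174 hairpins in all. The row was chosen by its measured reads, which put it among the most abundant larval hairpins and far lower in the adult library, so its levels, arms and forms are given as descriptions, with no test. The adult library came from brains with antennal lobes, explanted 3 to 5 days after eclosion. The larval library came from ventral ganglia with optic lobes, but without eye discs, of wandering larvae of the third instar. Both groups shared the strain w[1118] Iso31 and the rearing at 24 °C, each pooled about 100 animals of both sexes in near equal numbers, and each had 1 library made from 1 µg of total RNA. Stage and dissected part changed together and cannot be told apart.

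MicroRNAs are cut from a hairpin with a 5′ and a 3′ arm, and usually one arm is kept and loaded into Argonaute, where its seed near the 5′ end selects the target transcripts. In Drosophila, miR-315 is known as an activator of Wingless signalling, the fly Wnt pathway. It represses Axin, a scaffold of the complex that breaks down the pathway's effector Armadillo, and Notum, a secreted enzyme that inactivates the Wingless ligand. Wingless signalling patterns imaginal discs and takes part in the formation of the nervous system and its synapses.

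Small RNA reads assigned to miRNA hairpins were counted, with 1665159 reads over 169 hairpins in the adult library and 822500 over 139 in the larval library. One read stood for 0.601 RPM (reads per 1000000 hairpin reads) in the adult library and 1.22 RPM in the larval library. There were no replicates, so all intervals below are exact 95% binomial intervals (Clopper-Pearson) that cover the counting error of reads only. The kit carried no molecular identifiers, so copies of 1 molecule were counted as separate reads. None of the mature reads of mir-315 fitted a second hairpin, whereas 15 of the 174 hairpins had such shared reads.

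The hairpin is annotated in assembly BDGP6 on the plus strand of chromosome 3L, from 18860971 to 18861054, a length of 84 bases (FBgn0262461). The 5′ mature form covers bases 12 to 33 of the hairpin (18860982 to 18861003) and the 3′ mature form bases 54 to 75 (18861024 to 18861045), each of 22 bases, with 20 bases between them. The whole hairpin lies in exon 2, the last exon, of the long noncoding RNA lncRNA:CR45388 (18852573 to 18861363), whose RefSeq synonym is pri-mir-315, and ends 309 bases before the end of that gene. On the opposite strand the antisense gene asRNA:CR45912 (18858690 to 18866107) also covers it, with an exon over the hairpin in 3 of its 5 annotated transcripts. The nearest other annotated miRNA gene is mir-9a, 704.1 kb away on the same strand, so mir-315 has no miRNA neighbour in a cluster.

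**Figure D1:**
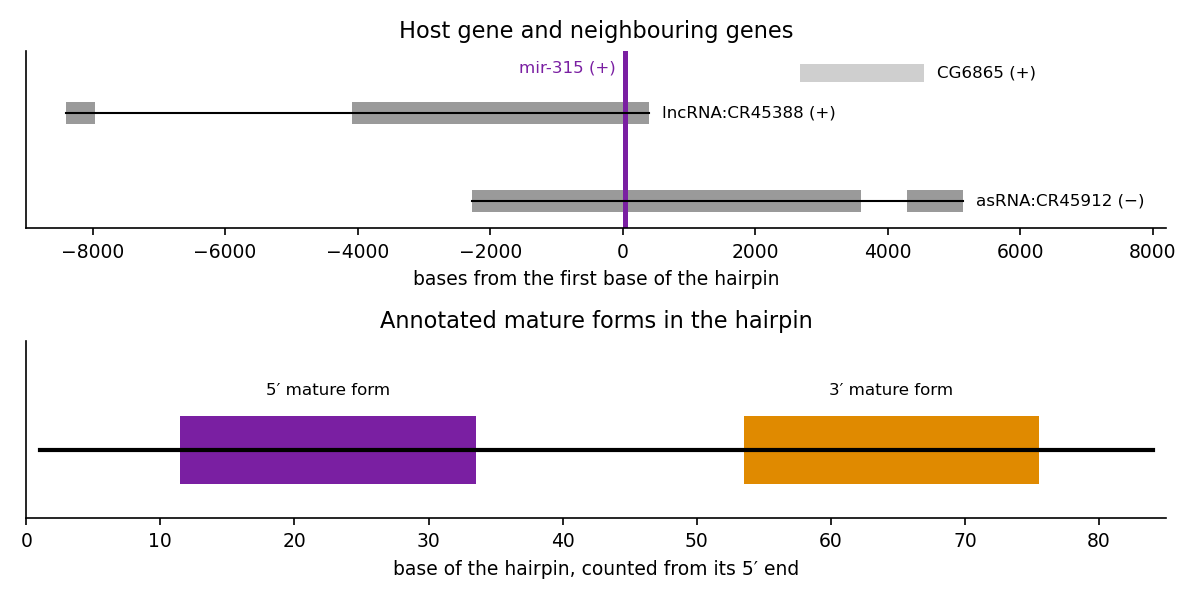
Annotation of the mir-315 locus in assembly BDGP6, drawn to scale. The upper panel shows genes by distance in bases from the first base of the hairpin, with exons as boxes (1 of the 5 transcripts of asRNA:CR45912 is drawn, and CG6865 is drawn as its whole span), and the hairpin lies in the last exon of lncRNA:CR45388; the lower panel shows the 22-base mature forms at bases 12 to 33 and 54 to 75 of the 84-base hairpin.

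miR-315 was among the most abundant miRNAs of both libraries and was lower in the adult one. It had 27416 reads in the adult library, or 16464 RPM (16272 to 16659), and 97531 reads in the larval library, or 118579 RPM (117881 to 119279). This was 1.65% of adult hairpin reads (1.63 to 1.67) and 11.9% of larval hairpin reads (11.8 to 11.9). The level was thus 7.20-fold lower in the adult library (7.11 to 7.30), a log2 ratio of adult over larval of -2.85. The authors' deposited table gives a fold change of 7.20, there written as larval over adult, and lists the p-value of Kal's Z-test as 0. The authors' deposited table lists that p as 0 for 68 of its 174 hairpins, and the test compares the reads of these libraries, not the stages.

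In the order of levels, mir-315 was the 14th hairpin of the adult library. It stood there between mir-210, a miRNA known from photoreceptors, at 17586 RPM, and mir-11, which lies in an intron of the cell cycle gene E2f1, at 13033 RPM. In the larval library it was the 3rd hairpin, between mir-276a at 200080 RPM and mir-276b at 107418 RPM, which are nearly identical in their 3′ arm. None of these neighbours had a counting interval that overlapped that of mir-315, though the deposited split of reads between mir-276a and mir-276b is uncertain.

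A hairpin was compared if its reads over both libraries came to at least 20 and its level reached 10 RPM in either one, and was called different if the ratio was at least 2 with an interval that excluded 1. By that rule 46 of 114 hairpins (40.4%) were higher in the adult library and 28 of 114 (24.6%) were higher in the larval library, mir-315 among them. The remaining 40 met neither. Since mir-315 was picked with this contrast known, the shares serve only as the background of its call. Another total left out the 10 most abundant hairpins of either library, 14 hairpins in all. With it, 40 hairpins were higher in the adult library and 41 were higher in the larval one. The adult calls were then 49.4% of all calls, against 62.2% with all hairpin reads, and mir-315 was 10.3-fold lower in the adult library. That total, which holds no reads of mir-315 itself, shifted every log2 ratio by -0.52, and with it the median over all 114 hairpins was -0.05, against 0.47 with all hairpin reads.

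Of the 28 hairpins lower in the adult library, 11 had a lower log2 ratio than mir-315 by point estimate. Among these, mir-6-1, mir-6-2, mir-6-3 and mir-286 had intervals that covered the 7.20-fold of mir-315. The mir-6 hairpins, with 3 adult reads each, and mir-iab-4, with 2, reached 10 RPM only in the larval library. The intervals of the rest lay above 7.20-fold, as for mir-275, with 401 adult and 5397 larval reads. mir-315 thus did not have the largest fold change. With all hairpin reads as the total, its difference in RPM was the largest of the 174 hairpins in absolute size. It lay 102114 RPM lower in the adult library and made up 25.2% of the 405340 RPM summed over the 69 hairpins that were lower there. The next differences, named after their values were seen, were those of mir-957, 97880 RPM higher in the adult library, and mir-184, with a difference of -94019 RPM, adult minus larval. This order was not computed under other scalings, such as the total that leaves out the 10 most abundant hairpins, and may differ there. Among the 10 most abundant larval hairpins, only mir-92b, a miRNA tied to neural stem cells, had a lower log2 ratio, at -7.54.

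Ratios to single miRNAs of the same library do not depend on any total. For each read of mir-124, the conserved miRNA of neurons, there were 10.3 reads of mir-315 in the adult library (9.87 to 10.7) and 46.2 in the larval library (44.3 to 48.3), a 4.50-fold difference. For each read of mir-8, a miRNA known to antagonise Wingless signalling, there were 0.503 reads of mir-315 in the adult library (0.495 to 0.510) and 5.61 in the larval library (5.52 to 5.70), an 11.2-fold difference. Against mir-10 the difference was smaller, 2.43-fold, with 1.57 reads of mir-315 per read in the adult library (1.54 to 1.60) and 3.83 in the larval library (3.77 to 3.88), and against mir-276b it was 8.17-fold. The size of the difference therefore varied with the miRNA it was set against. miR-8 reads outnumbered those of miR-315 in the adult library, and those of miR-315 were the more numerous in the larval library.

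**Figure D2:**
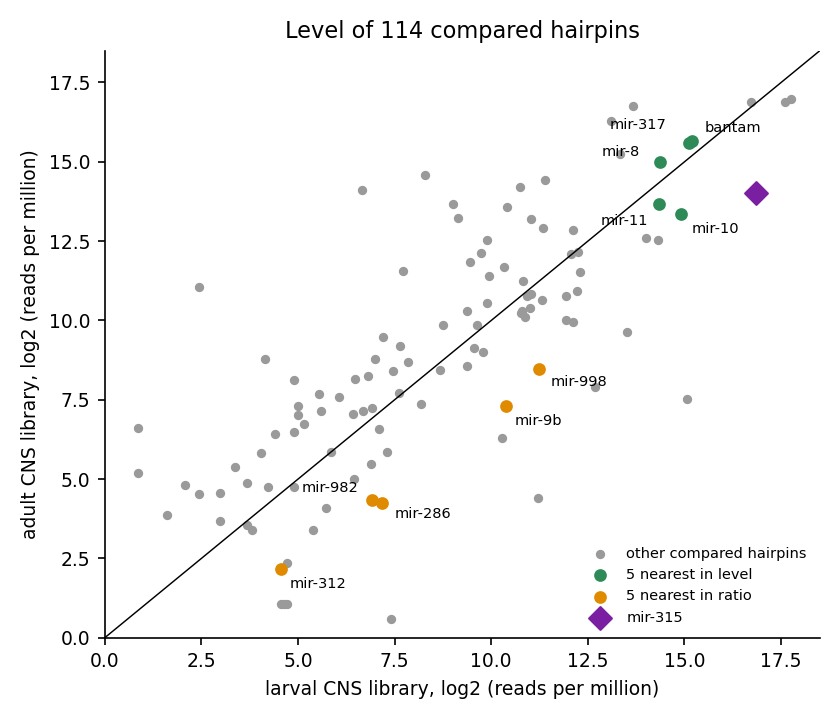
Level of the 114 compared hairpins in the adult library (vertical axis) and the larval library (horizontal axis), as log2 RPM with 0.5 reads added, 1 point per hairpin, with the line of equal level. mir-315 (diamond) lies below the line at the high end, and the hairpins with the nearest ratios lie at far lower levels.

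Nearly all reads of mir-315 came from the 5′ arm, and most of those differed from the annotated mature form. The 5′ arm had 27115 reads in the adult library and 97076 in the larval library, and the 3′ arm had 189 in the adult library and 329 in the larval library. The 5′ arm thus supplied 99.3% of mature reads in the adult library (99.2 to 99.4) and 99.7% in the larval library (99.6 to 99.7). Reads of the hairpin in neither mature form numbered 112 in the adult library, 0.409% of its reads (0.336 to 0.491), and 126 in the larval library, 0.129% (0.108 to 0.154).

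Most miRNAs here were read from the other arm. Among hairpins with reads on both arms and at least 100 mature reads, 31 of 68 in the adult library and 26 of 61 in the larval library had at least 50% of mature reads on the 5′ arm, and the medians of the 5′ share were 22.1% in the adult library and 25.0% in the larval library. mir-315 stood near the top of this range, with 8 of the 68 above it in the adult library and 5 of the 61 in the larval library.

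Each class of reads stood at lower RPM in the adult library, by unequal factors, apart from variant 3′ reads. The 5′ arm was 7.25-fold lower in the adult library (7.15 to 7.35), the 3′ arm 3.52-fold (2.94 to 4.24) and the reads outside both mature forms 2.28-fold (1.75 to 2.96). Variant 3′ reads were too few for a direction, with 5 in the adult library and 2 in the larval library. As a result there were 143 reads of the 5′ arm for each read of the 3′ arm in the adult library (124 to 166) and 295 in the larval library (265 to 330).

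A smaller ratio of 5′ to 3′ reads in the adult library was common. Of 18 hairpins with at least 100 reads on each arm in each library, 14 had a lower ratio there, with a median log2 change of -0.87. mir-315, with -1.04, was in the middle of these 18, as 8 had a lower value. The share of reads outside the mature forms was likewise higher in the adult library in 47 of the 64 hairpins whose mature reads numbered at least 100 in each library, by a median of 0.349 percentage points over the 64, and by 0.279 points in mir-315.

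**Figure D3:**
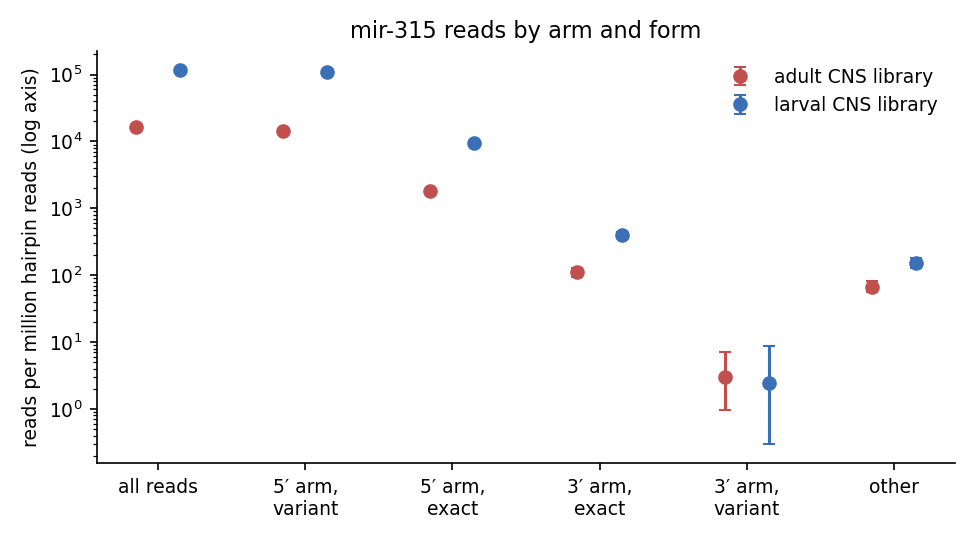
Reads of mir-315 as RPM on a log axis, by arm and form, in the adult library (left point of each pair) and the larval library (right point). Bars are exact 95% intervals for counting error, smaller than the points for the large classes; the pairs lie apart in every class but variant 3′ reads, and variant 5′ reads are the largest class.

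A read counted as exact equalled the annotated mature form, and the other reads of an arm are called variants here. On the 5′ arm, 3011 of 27115 adult reads were exact, a share of 11.1% (10.7 to 11.5), and 7721 of 97076 larval reads, 7.95% (7.78 to 8.13). Variants thus outnumbered exact reads by 8.01 to 1 in the adult library (7.71 to 8.32) and by 11.6 to 1 in the larval library (11.3 to 11.8). The 3′ arm was the reverse, with 184 of its 189 adult reads and 327 of its 329 larval reads exact, or 97.4% in the adult library (93.9 to 99.1) and 99.4% in the larval library (97.8 to 99.9). The tables do not say how a variant differs from the annotated form, in its ends or in a base, and the sources used here do not give the annotation release behind the counts.

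The 2 forms of the 5′ arm differed in how far the libraries were apart. Exact 5′ reads stood at 1808 RPM (1744 to 1874) in the adult library and 9387 RPM (9180 to 9598) in the larval library, 5.19-fold lower in the adult library (4.98 to 5.42). Variant 5′ reads stood at 14475 RPM (14295 to 14658) in the adult library and 108638 RPM (107967 to 109313) in the larval library, 7.50-fold lower in the adult library (7.40 to 7.61). By exact 5′ reads alone, mir-315 was 9th of all hairpins in the adult library and 3rd in the larval library.

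Low exact shares on the 5′ arm were not limited to mir-315. Among hairpins with at least 100 reads of the 5′ arm, 11 of 49 in the adult library and 8 of 43 in the larval library had an exact share under 20%, mir-315 included. Of these hairpins, 5 of 49 in the adult library and 5 of 43 in the larval library had a lower exact share than mir-315, and the medians were 44.2% in the adult library and 69.7% in the larval library. Those with a lower share all had far fewer 5′ reads, the most being those of mir-305, with 7466 in the adult library, of which 0.254% were exact, and 5037 in the larval library, of which 1.43% were exact. Among the 15 most abundant hairpins of each library, the exact share of the main arm was lower than in mir-315 only for adult mir-210, at 1.80% of its 3′ reads, and for no larval hairpin. Among all hairpins with at least 100 main-arm reads, 12 of 84 in the adult library and 5 of 65 in the larval library had a lower share. The exact share of mir-315 was 3.15 percentage points higher in the adult library, whereas over the 39 hairpins with at least 100 reads of the 5′ arm in each library the median was -2.42 points, adult minus larval, and 10 of the 39 were higher in the adult library.

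**Figure D4:**
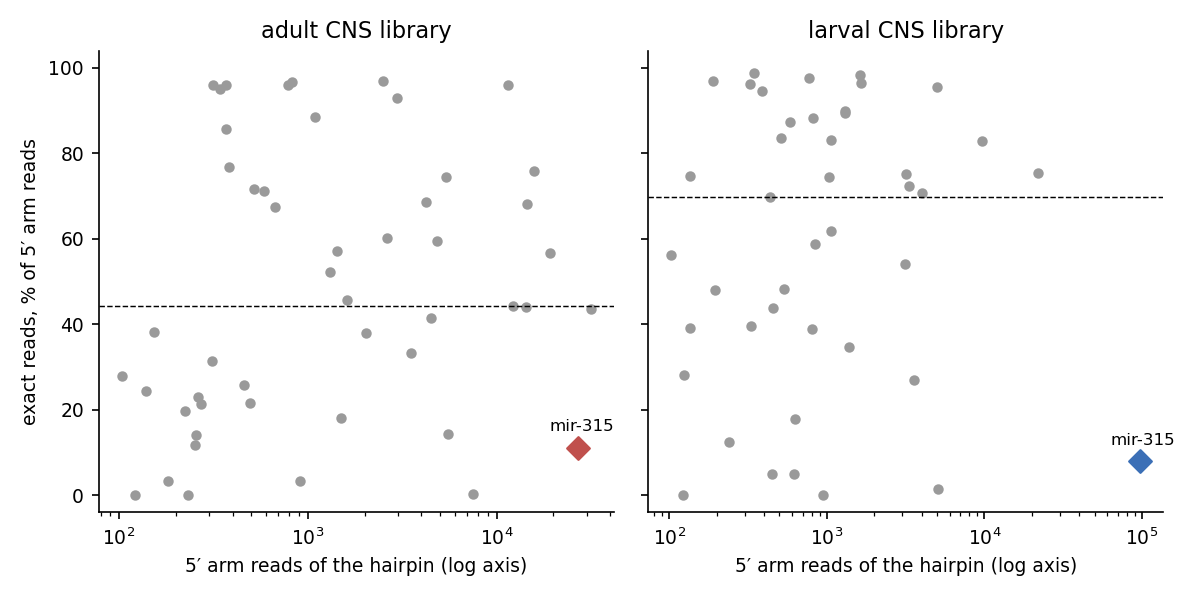
Share of 5′ arm reads that equalled the annotated mature form (vertical, %) against the number of 5′ arm reads (horizontal, log axis), 1 point per hairpin with at least 100 such reads, in the adult library (left) and the larval library (right). Dashed lines mark the medians of 44.2% in the adult library and 69.7% in the larval library; mir-315 (diamond) joins a very high number of reads with an exact share of 11.1% in the adult library and 7.95% in the larval library.

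The abundance of this single arm weighed on summaries of the larval library. mir-315 held 12.96% of all 5′ arm reads in the adult library (12.8 to 13.1), the 2nd place after mir-987 with 15.1%, and 54.5% in the larval library (54.2 to 54.7), where mir-10 was next with 12.2%. Of all variant 5′ reads it held 22.6% in the adult library (22.3 to 22.8) and 76.8% in the larval library (76.6 to 77.1), the first place in both. Of exact 5′ reads it held 2.94% in the adult library and 12.5% in the larval library.

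As a share of all 5′ reads the difference shrinks to 4.21-fold lower in the adult library, since mir-315 is itself the larger part of the larval total. Set against the 5′ reads of all other hairpins, there were 0.149 reads of mir-315 per read in the adult library and 1.20 in the larval library, 8.04-fold lower in the adult library (7.93 to 8.15).

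Without mir-315 the pooled 5′ share of the libraries nearly met. With all hairpins, the 5′ arm supplied 13.1% of mature reads in the adult library (13.05 to 13.15) and 22.2% in the larval library (22.1 to 22.3). With mir-315 left out, it supplied 11.6% in the adult library (11.55 to 11.65) and 11.5% in the larval library (11.42 to 11.57), intervals that overlap. Leaving out each hairpin in turn, none of the others moved the larval 5′ share as far as the -10.7 points of mir-315, the next being mir-184 with 6.49 points. In the adult library mir-315 moved it by -1.50 points, 6th in size.

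The order of the libraries in exact 5′ reads turned round without mir-315. With all hairpins, 48.9% of 5′ reads were exact in the adult library (48.7 to 49.2) and 34.7% in the larval library (34.5 to 34.9). Without mir-315 the shares were 54.6% in the adult library (54.3 to 54.8) and 66.8% in the larval library (66.4 to 67.1). Over both arms, the exact share of mature reads was 76.5% in the adult library and 77.2% in the larval library with mir-315, and 77.6% in the adult library and 86.7% in the larval library without it.

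**Figure D5:**
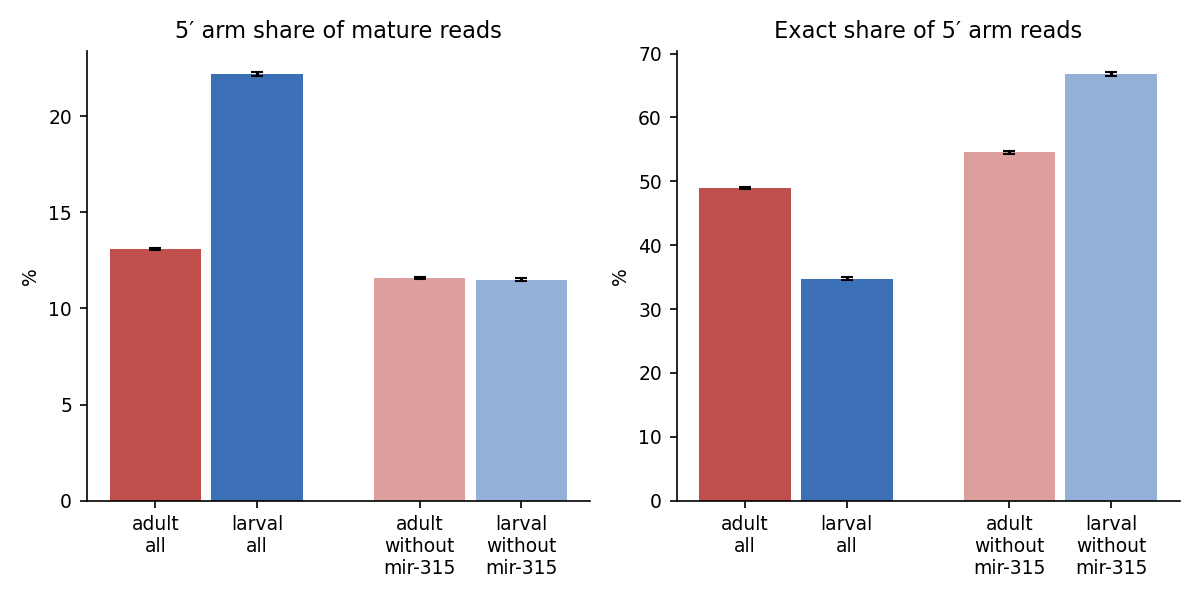
Share of mature reads from the 5′ arm (left panel, %) and share of 5′ arm reads equal to the annotated form (right panel, %), for all hairpins (solid bars) and without mir-315 (pale bars), adult before larval in each pair. Bars with exact 95% intervals show 5′ shares of 13.1% in the adult library and 22.2% in the larval library with all hairpins, and of 11.6% in the adult library and 11.5% in the larval library without mir-315, and the order of the exact shares turning round.

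Few miRNAs resembled miR-315 in level and ratio at once. Likeness in level was measured as the Euclidean distance between the log2 RPM of the 2 libraries, which gives only 2 points per hairpin. The 5 nearest of the other 113 compared hairpins were mir-10 at a distance of 2.04, bantam at 2.34, mir-317 at 2.35, mir-11 at 2.55 and mir-8 at 2.68. mir-10, a miRNA of the Antennapedia complex, was the only one of them called lower in the adult library with all hairpin reads as the total, with 10478 RPM in the adult library against 30993 RPM in the larval library, 2.96-fold lower. It was also the only one read mostly from the 5′ arm, at 83.3% of mature reads in the adult library against 85.5% in the larval library. bantam, which promotes tissue growth, had a log2 ratio of 0.47 and mir-317 one of 0.47, and both turned to -0.05 with the total that leaves out the 10 most abundant hairpins. With that total mir-11, at a log2 ratio of -1.18, was also called lower in the adult library. The level of mir-317 included many reads outside its mature forms. Its 3′ arm had 35729 of its 82009 adult reads and 13471 of its 29168 larval reads. Distances were not computed from mature reads alone.

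The 5 hairpins with the nearest log2 ratio were far less abundant. They were mir-286 (-2.93), a member of the miR-309 cluster that clears maternal transcripts in the embryo, mir-998 (-2.76), which lies with mir-11 in E2f1, mir-9b (-3.07), mir-982 (-2.59) and mir-312 (-2.40). The most abundant of these, mir-998, stood at 353 RPM in the adult library and 2393 RPM in the larval library. mir-312 had 7 adult and 19 larval reads, and its interval of 2.21-fold to 15.5-fold covers that of mir-315.

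The other miRNAs listed for action on Wingless signalling were mir-8 and the miR-310 cluster, whose members repress armadillo and its partner pangolin. Of these 5, 3 passed the floor on low counts, 2 were called lower in the adult library and none higher, beside 24.6% lower and 40.4% higher over all 114 hairpins. The median log2 ratio of the 3 was -2.36, which is the value of mir-311, against 0.47 over all 114. mir-311 had 8 adult and 21 larval reads and mir-312 the counts given above. Both reached 10 RPM only in the larval library, with 25.5 RPM for mir-311 and 23.1 RPM for mir-312. The floor thus favoured their calls, and the count and median carry no weight beside the background. Reads of these related hairpins may be split between them by the counting, so they are uncertain. mir-310 and mir-313 were under the floor with at most 4 reads. mir-8 had 32762 RPM in the adult library and 21139 RPM in the larval library, a log2 ratio of 0.63 that met neither call and stayed above 0 with each of the scalings tried.

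Of 6 miRNAs listed as neuronal, 3 were called higher in the adult library and none lower, beside 40.4% higher and 24.6% lower over all 114 hairpins. The count is close to that background, and the median log2 ratio was 1.09. The differences were 2.72-fold in mir-137, 5.21-fold in mir-932 and 9.59-fold in mir-219. mir-1000, which acts on the vesicular glutamate transporter of neurons, met neither call, with 7402 RPM in the adult library and 4401 RPM in the larval library. mir-124 had 1603 RPM in the adult library and 2564 RPM in the larval library, and mir-190 1115 RPM in the adult library and 1864 RPM in the larval library, and both also met neither. With the total that leaves out the 10 most abundant hairpins, mir-124 and mir-190 were called lower in the adult library and mir-137 lost its call, leaving 2 in each direction.

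Several miRNAs listed as markers of body parts or tissues differed between the libraries. Those of the Hox complexes were listed for the ventral nerve cord. All 3 compared ones were lower in the adult library, beside 24.6% of all 114 hairpins. The 4 listed summed to 12435 RPM in the adult library and 35929 RPM in the larval library. mir-10 was still the 18th hairpin of the adult library, at 10478 RPM. mir-993 stood at 1955 RPM there, so neither was confined to the larval library. mir-iab-4 had 2 adult and 138 larval reads and passed the floor only through the larval library. mir-iab-8 had 1 adult and 13 larval reads, under the floor. Among markers of other tissues, mir-210 of photoreceptors had 17586 RPM in the adult library and 99.7 RPM in the larval library. mir-1 and mir-133, listed as muscle miRNAs, were both higher in the adult library, as were 40.4% of all 114 hairpins. The difference was 2.98-fold for mir-1 and 25.1-fold for mir-133. mir-133 had 13002 RPM in the adult library and 518 RPM in the larval library. mir-1 had only 141 RPM in the adult library and 47.4 RPM in the larval library. With levels so far apart, the 2 were not read as a measure of muscle. Of 6 fat body miRNAs of the miR-959 cluster, 4 were listed, with 2 to 3 reads each in the adult library and 0 in the larval library. The part of the dissection and of these tissues in the difference of mir-315 was not tested.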

How the data were processed

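For each library the authors deposited counts of trimmed, mapped reads by miRNA hairpin and arm, per the file headers. The submitters' processing notes name CASAVA 1.8 and the build dm3. Aligner, counting program, use of strand and annotation release: not given in the sources used here. Per the file headers, the authors' table of the comparison gives RPM, a signed fold score and a p-value by Kal's Z-test.

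RPM was computed from all hairpin reads. Ratios have exact conditional binomial intervals, shares exact binomial ones (SciPy 1.17.1), and log2 ratios 0.5 reads added. With 1 library per stage no test was run. Alternatives were TMM factors (edgeR 4.0.16), DESeq2 1.42.0 size factors, other totals, other read classes and no floor. The call rule was also run on simulated counts with counting error only, which cannot show how libraries of 1 stage vary. Coordinates come from Ensembl release 115, assembly BDGP6, matched by name. Named hairpins were mir-315, its 5 nearest by level and by ratio, rank neighbours and fixed lists; the miRNA and the lists were chosen with earlier results of these data known. Candidate hairpin lists were not used here.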

Additional observations from a re-analysis of the deposited data

How the results depend on the processing

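No paired analysis was possible because each stage has 1 library, and for the same reason no library could be left out. mir-315 stayed lower in the adult library, past the rule of size, in all settings run. Its log2 ratio of -2.85 was -2.91 with TMM factors and -3.00 with DESeq2 size factors. It was -3.37 with the total that leaves out the 10 most abundant hairpins of either library, 14 in all. With mature reads, or with reads that fit 1 hairpin, it was -2.83. The ratio was -2.31 with exact reads, -2.07 within 5′ reads and -3.01 without mir-315 in the total, a setting chosen after seeing the data. Its share of adult reads, 1.65%, was 7.59% of a total that leaves out the most abundant hairpins other than mir-315, 1.71% with mature reads, 0.261% with exact reads and 1.73% with reads that fit 1 hairpin. Its share of larval reads, 11.9%, was 45.9%, 12.1%, 1.30% and 12.3% under the same alternatives. With exact reads the 5′ share was 94.2% in the adult library and 95.9% in the larval one, and the exact share over both arms was 11.7% in the adult library and 8.26% in the larval one. Counts of calls stayed within 1.5 times of 46 higher in the adult and 28 higher in the larval library in the 6 alternatives. The cause of the shifts was not tested. Depth limits the variant 3′ reads, with 5 in the adult library and 2 in the larval one.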
